A study of Mus musculus with 16 samples.

Results

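The 9 genes described here encode Cfp1 and the subunits that form Set1 histone methyltransferase complexes with it. They are Cxxc1, which encodes Cfp1, the catalytic subunits Setd1a and Setd1b, Wdr82, the shared core subunits Ash2l, Rbbp5, Wdr5 and Dpy30, and Hcfc1. The genes were chosen by name, and all 9 were found by identifier among the 22375 genes of the count tables.

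Set1 complexes belong to the COMPASS family, which methylates histone H3 at lysine 4, and the trimethylated form marks the promoters of active genes. Setd1a and Setd1b carry the catalytic SET domain and are alternatives to each other, whereas Ash2l, Rbbp5, Wdr5 and Dpy30 form a core that is also found in the MLL family of complexes. Cfp1 and Wdr82 are characteristic of Set1 complexes, and Cfp1 binds unmethylated CpG dinucleotides through its CXXC domain.

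RNA was sequenced from mouse embryonic stem (ES) cells of 2 genotypes, each untreated or exposed to doxorubicin, a DNA damaging agent that activates p53. One genotype is labelled Wildtype (E14Tg2a), called WT here, and the other Cfp1 -/-, written Cfp1−/−, and both carry the strain label 129/OLA. All cells grew on gelatin in Glasgow MEM with foetal bovine serum and LIF. Treatment lasted 6 hours at a final doxorubicin concentration that the treatment protocol and the methods of the study give as 1 μM, whereas the label of each treated sample gives 1 mM. Each of the 4 groups held 2 biological replicates, and each biological replicate had been sequenced in 2 technical replicates, which gives 16 samples. The labels call the replicates biological without saying whether they came from separate cultures, so the p-values measure the spread between these libraries. The Cfp1−/− libraries carry a single genotype label, so the loss of Cfp1 and other differences between the lines cannot be told apart.

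The total counts used per biological replicate ranged from 11772320 to 29422711. A technical run of treated Cfp1−/− replicate 1 was left out of the fits, apart from 1 alternative that sums all runs, because 225 of 280 X-linked genes that had at least 200 counts in its first run had 0 in the second. Hcfc1, which is X-linked, had 3082 counts in the first run and 0 in the second. Over genes outside chromosomes 19, X and Y, 6 of the 8 pairs of technical runs differed by about counting error, where chi-square divided by its degrees of freedom lay between 1.00 and 1.04. The other pairs were replicate 1 of treated WT cells, at 8.70, and replicate 1 of treated Cfp1−/− cells, at 14.1. Dpy30 showed the difference most among the members. In treated WT replicate 1 it stood at 104 CPM (the count scaled to the library's total, here that of the run) in the first run and 63.7 in the second, and in treated Cfp1−/− replicate 1 at 98.5 and 52.5. Ash2l was likewise lower in the second run, at 312 and 231 CPM in WT and at 298 and 212 CPM in Cfp1−/− cells. Other members were higher in the second run. In WT Setd1a stood at 34.0 and 40.8 CPM and Setd1b at 16.99 and 21.97 CPM, and in Cfp1−/− cells Rbbp5 at 115 and 148 CPM. The second run of treated WT replicate 1 was kept, and calls that change without it are named below.

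The labels were checked with marker genes. Summed over 8 ES cell genes, expression lay between 974 and 3247 CPM in every library, and none of the 8 was at 0. Pou5f1 was the most abundant of them in 6 libraries and Nanog in the untreated Cfp1−/− pair. The 6 fibroblast genes that would mark feeder cells summed to between 8.97 and 38.8 CPM, the 7 primitive endoderm genes to between 9.20 and 31.9 CPM, and the 5 mesoderm genes to between 5.96 and 16.3 CPM. Ectoderm genes summed to between 22.4 and 207 CPM, with Nes the most abundant in 7 libraries, and trophoblast genes to between 7.28 and 115 CPM, with Krt8 the most abundant in every library. The trophoblast sum was lower in every Cfp1−/− library than in any WT library, and so was Krt8, at 5.32 to 8.48 CPM against 33.4 to 112.8 CPM. Between the untreated lines Cdx2 likewise had a lower mean in Cfp1−/− cells, 0.131 against 0.982 CPM, whereas Elf5 was higher there, at 0.974 against 0.0198 CPM, and Hand1 had a mean of 1.10 against 0.333 CPM. The ectoderm sum was also lower in the Cfp1−/− libraries than in any WT library, apart from untreated Cfp1−/− replicate 2, at 58.5 CPM, which lay above treated WT replicate 1, at 56.7 CPM. The fibroblast sum was higher with doxorubicin, at 36.1 and 26.1 CPM in WT and 35.7 and 38.8 CPM in Cfp1−/− cells, than without it, at 12.1 and 10.98 CPM and at 8.97 and 11.6 CPM. Col1a1, Pdgfra and Thy1 were called higher with doxorubicin in WT, and Col1a1, Pdgfra and Col1a2 in Cfp1−/− cells, while in WT Col1a2 had a mean of 1.98 CPM with and 2.46 without doxorubicin and Col3a1 of 1.44 and 2.49. Pdgfra is also on the primitive endoderm list, whose sum in WT was 18.2 and 17.6 CPM with and 9.20 and 12.3 CPM without doxorubicin, and in Cfp1−/− cells 31.9 and 27.7 CPM with and 25.7 and 17.3 CPM without it. Of that list Pdgfra was called higher with doxorubicin in both lines, and Gata4 and Sox17 in Cfp1−/− cells alone. No gene of the list was called lower in either line, although the means of Dab2 and Sox7 were lower with doxorubicin. Dab2 had a mean of 4.40 CPM with and 6.59 without doxorubicin in WT, and of 4.61 and 10.96 in Cfp1−/− cells. Sox7 had a mean of 1.04 CPM with and 1.21 without doxorubicin in WT, and of 0.513 and 1.43 in Cfp1−/− cells. Among the mesoderm genes Tbx6 and Mesp1 were called higher with doxorubicin in both lines and Mixl1 in WT, while T was called lower in WT and Eomes in Cfp1−/− cells. Of the ectoderm genes Pax6 was called lower in both lines, from a mean of 58.3 to 2.46 CPM in WT and from 4.73 to 0.543 CPM in Cfp1−/− cells, Fgf5 lower in WT and Zic1 higher in Cfp1−/− cells. Hand1, of the trophoblast genes, was called higher with doxorubicin in WT, from a mean of 0.333 to 3.07 CPM. Between the untreated lines Nanog, Utf1, Pdgfra and Elf5 were called higher in Cfp1−/− cells. Called lower there were Pou5f1, Zfp42, Col1a1, Col1a2, Col3a1, T, Pax6, Fgf5, Zic1 and Krt8. The part of these lists in the results below was not tested. The p53 targets Cdkn1a, a cell cycle inhibitor, and Mdm2, the ubiquitin ligase of p53, rose with doxorubicin in both lines. Cdkn1a rose by a log2 fold change of 3.33 (SE 0.25, edgeR adjusted p = 1.27e-05) in WT and 2.03 (SE 0.24, adjusted p = 0.000133) in Cfp1−/− cells, and Mdm2 by 2.69 (SE 0.17, adjusted p = 5.73e-06) and 2.33 (SE 0.17, adjusted p = 1.21e-05).

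Cxxc1 lies on chromosome 18 (NCBIM37, 74375785 to 74381145, plus strand; ENSMUSG00000024560) and is the deleted gene. It had 1412 and 1117 counts in untreated WT cells and 616 and 829 in treated WT cells, which is 21.4 and 20.7, and 14.9 and 16.1, CPM per kb of exon (CPM by TMM library sizes from here on). The Cfp1−/− libraries held 4 and 3 counts without doxorubicin and 3 and 1 with it, so every library matched its genotype label. Summed over replicates, the Cfp1−/− level was 0.267% of WT without doxorubicin (95% exact binomial interval 0.107 to 0.55%) and 0.287% with it (0.078 to 0.736%), intervals that cover counting error alone. In WT cells Cxxc1 had a log2 fold change of -0.44 with doxorubicin (SE 0.19, 95% interval -0.87 to -0.02). The treated and untreated WT libraries did not overlap, yet this missed the threshold (edgeR adjusted p = 0.0755). With the WT groups fitted alone the adjusted p was 0.0444, and by DESeq2 0.0368, in a range from 0.033 to 0.596 over the alternatives.

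The levels of the 9 members in untreated WT cells spanned from 1.81 CPM per kb for Setd1b to 163 for Dpy30. Setd1b stood at 1.81 ± 0.594 CPM per kb (SD, n = 2 here and below) and Setd1a at 3.78 ± 0.0088, both under the median of 4.30 over the 15756 tested genes with an exon length. Per kb of the exons that Setd1a shares with no other gene of its strand, described below, it stood at 7.86, above that median and still between Setd1b and Cxxc1. Cxxc1 came next at 21.1 ± 0.471, followed by Rbbp5 at 33.0 ± 3.60 and Hcfc1 at 49.8 ± 1.22. Wdr82 stood at 57.5 ± 4.03, Wdr5 at 77.0 ± 11.1, Ash2l at 103 ± 1.82 and Dpy30 at 163 ± 9.38. No neighbours in this order overlapped in their replicates. Dpy30 encodes the shortest mature transcript of the set, with 974 bases of merged exon, and was above 97.9% of tested genes. The catalytic subunits thus had the lowest levels and the core subunits Dpy30, Ash2l and Wdr5 the highest, while Rbbp5, also of the core, lay below Wdr82 and Hcfc1. A level of RNA is not one of protein.

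In treated WT cells the order was the same at both ends, with Setd1b at 1.22 ± 0.577, Setd1a at 4.54 ± 0.718 and Cxxc1 at 15.5 ± 0.891 CPM per kb. Wdr82, at 25.1 ± 1.38, lay next to Rbbp5, at 23.2 ± 2.12, and their replicates overlapped. In untreated Cfp1−/− cells Setd1a, at 7.29 ± 1.57, and Setd1b, at 5.21 ± 3.54, overlapped, as did Wdr5, at 76.0 ± 6.14, and Ash2l, at 73.9 ± 12.3, and Rbbp5, at 48.1 ± 4.84, and Hcfc1, at 45.9 ± 7.57. Per kb of unshared exons Setd1a, at 17.5 and 12.8, lay above Setd1b in both of these libraries without overlap. In treated Cfp1−/− cells Hcfc1, at 26.9 ± 1.99, Rbbp5, at 26.3 ± 3.37, and Wdr82, at 24.3 ± 5.95, each overlapped the next, and Setd1a, at 5.92 ± 0.243, stood above Setd1b, at 1.58 ± 0.558. The remaining neighbours in each group did not overlap.

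**Figure D1:**
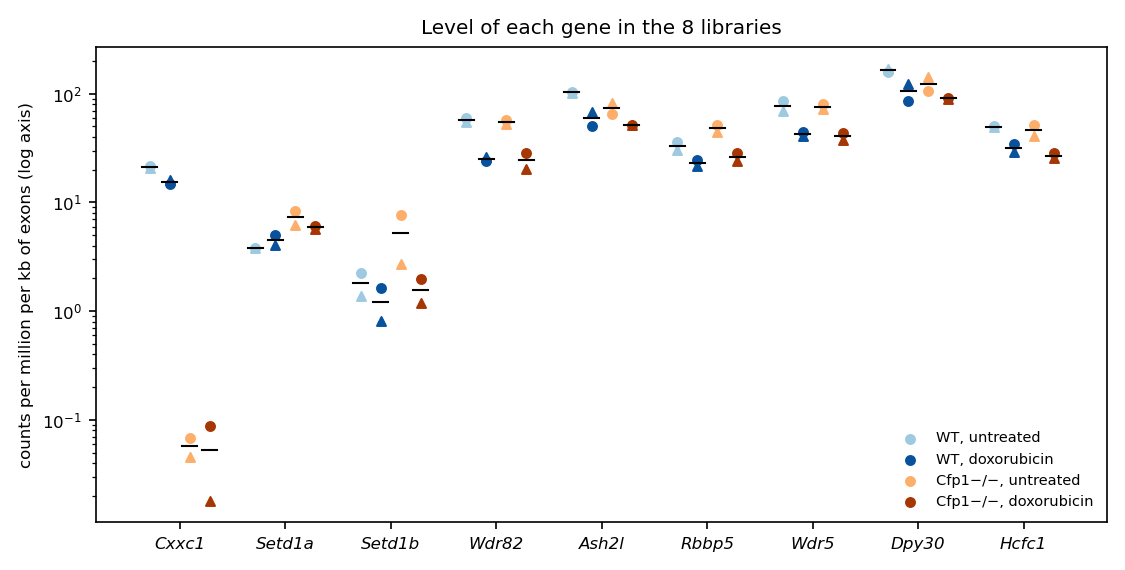
Level of each of the 9 genes in CPM (counts scaled to the library size) per kb of merged exon on a log axis, for the 4 groups. Circles are replicate 1, triangles replicate 2 and black bars the mean of both, and Cxxc1 falls from about the level of other subunits to between 1 and 4 counts per library in the Cfp1−/− cells.

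Setd1a lies on chromosome 7 (134920184 to 134943636, plus strand; ENSMUSG00000042308). Its level was 3.78 and 3.79 CPM per kb in untreated WT cells and 8.41 and 6.18 in untreated Cfp1−/− cells. Both untreated Cfp1−/− libraries stood above both WT libraries, whose values lay closer together. The log2 fold change was 0.95 (SE 0.18, 95% interval 0.54 to 1.35, edgeR adjusted p = 0.00386), and the call held under all 17 alternative fits, with log2 fold changes between 0.73 and 1.15. Setd1a was also higher than most of its surroundings, which were themselves raised. The other 1282 tested genes of chromosome 7 had a median log2 fold change of 0.53, and Setd1a was above 70.1% of them. Relative to that median its log2 fold change was 0.42. Its 20 nearest tested genes had a median of 0.68, with quartiles of 0.00 and 0.87, and 7 of them were called higher and 1 lower. The raised level was found along the length of chromosome 7, where the median of every 10 Mb stretch was above 0 and lay between 0.20 and 0.73. Whether the Setd1a difference is separate from that of its chromosome was not tested.

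With doxorubicin the estimated difference in Setd1a between the lines was smaller, but this change was not called. The difference of the responses was -0.56 (95% interval -1.14 to 0.01, edgeR adjusted p = 0.444). The treated WT libraries stood at 5.04 and 4.03 CPM per kb and the treated Cfp1−/− libraries at 6.09 and 5.75, without overlap. The log2 fold change of 0.39 (SE 0.18, 95% interval -0.02 to 0.79) missed the threshold (edgeR adjusted p = 0.143) and lay at -0.06 relative to the median of chromosome 7, 0.45. Within the lines Setd1a went in opposite directions without a call, by 0.26 in WT (SE 0.18, adjusted p = 0.264) and -0.30 in Cfp1−/− cells (SE 0.18, adjusted p = 0.194). Scaled by total counts, its log2 fold change in WT was 0.57, beside a median of 0.37 over all tested genes, and passed the threshold (adjusted p = 0.023, in a range from 0.023 to 0.772 over the alternatives). The annotation places 3523 of the 6795 exon bases of Setd1a, 51.9%, under exons of Hsd3b7 on the same strand, a gene of bile acid synthesis. The authors' counting left out reads on more than 1 gene, so where their annotation has the same overlap Setd1a is undercounted. Per kb of its unshared exons Setd1a would stand at 7.86 CPM per kb in untreated WT cells. Hsd3b7 itself had 4.08 to 6.07 CPM in untreated WT cells, and its log2 fold change between the untreated lines was 0.00 (SE 0.35, adjusted p = 0.999).

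Setd1b lies on chromosome 5 (123592202 to 123617444, plus strand; ENSMUSG00000038384), and its 10874 exon bases are the most of any member. It was measured at 2.23 and 1.39 CPM per kb in untreated WT cells and at 7.71 and 2.70 in untreated Cfp1−/− cells. Untreated Cfp1−/− replicate 1 stood far above every other library, and replicate 1 exceeded replicate 2 in all 4 groups. Its log2 fold change between the untreated lines was 1.52 (SE 0.49, 95% interval 0.41 to 2.64, edgeR adjusted p = 0.0379), beside a median of -0.10 over the other tested genes of chromosome 5 and 0.06 over its 20 nearest tested genes. The call rested on single libraries. Without untreated Cfp1−/− replicate 1 the log2 fold change was 0.61 (adjusted p = 0.359), without untreated WT replicate 2 it was 1.22 (adjusted p = 0.159), and without treated Cfp1−/− replicate 2 the adjusted p was 0.0501. By DESeq2 the adjusted p was 0.072, and the range over all alternatives was 0.000106 to 0.359.

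With doxorubicin Setd1b stood at 1.63 and 0.809 CPM per kb in WT and at 1.97 and 1.18 in Cfp1−/− cells, and the lines overlapped (log2 fold change 0.37, SE 0.51, edgeR adjusted p = 0.619). Setd1b fell by 1.73 on the log2 scale in Cfp1−/− cells with doxorubicin (SE 0.50, adjusted p = 0.0179), the largest change of any member in that comparison. This call too was lost without untreated Cfp1−/− replicate 1, when the log2 fold change was -0.80 (adjusted p = 0.186), and without treated Cfp1−/− replicate 2, at -1.40 (adjusted p = 0.144), in a range from 2.08e-05 to 0.186. Setd1b was also no longer the largest without untreated Cfp1−/− replicate 1, as Wdr82 stood at -0.96 or lower under every alternative. In WT cells the log2 fold change of Setd1b was -0.58 (SE 0.50, edgeR adjusted p = 0.367), and the treated and untreated libraries overlapped. Within each replicate number the treated library was lower. The fit with a term for the replicate block called it (-0.61, edgeR adjusted p = 0.0198), the only 1 of 17 alternatives that did. Of the summed level of both catalytic subunits, Setd1b made up 37.1 and 26.8% in untreated WT cells, 24.4 and 16.73% in treated WT cells, 47.9 and 30.4% in untreated Cfp1−/− cells, and 24.4 and 17.0% in treated Cfp1−/− cells. With Setd1a per kb of its unshared exons, the shares of Setd1b were 22.1 and 14.97% in untreated WT cells, 13.4 and 8.82% in treated WT cells, 30.6 and 17.4% in untreated Cfp1−/− cells, and 13.5 and 9.01% in treated Cfp1−/− cells. Setd1a was the more abundant of the pair in all 8 libraries on both scales.

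Among the 8 subunits other than Cxxc1, 3 were called higher and 1 lower in untreated Cfp1−/− cells, at an adjusted p under 0.05 over all 15762 tested genes. Of all tested genes 18.7% were called higher and 17.2% lower, and whether 3 and 1 of 8 differ from these shares was not tested. Scaling by total counts moved the share of higher among called genes from 52.1 to 70.4%. The 8 had a median log2 fold change of -0.04, against 0.01 over all tested genes. Besides Setd1a and Setd1b, Rbbp5 was higher and Ash2l lower. The number called fell from 4 to 1, Setd1a, without untreated Cfp1−/− replicate 1 or without untreated WT replicate 2, and to 2, Setd1a and Rbbp5, without treated Cfp1−/− replicate 2.

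Rbbp5, a WD-repeat subunit that joins the catalytic subunit to the core, lies on chromosome 1 (134373944 to 134402242, plus strand; ENSMUSG00000026439). It was at 35.6 and 30.5 CPM per kb in untreated WT cells and at 51.6 and 44.7 in untreated Cfp1−/− cells, without overlap. The log2 fold change was 0.54 (SE 0.14, edgeR adjusted p = 0.0171), against a median of -0.08 for the other tested genes of chromosome 1 and 0.39 for its 20 nearest. The call was lost without untreated Cfp1−/− replicate 1 (0.46, adjusted p = 0.0862) and without untreated WT replicate 2 (0.43, adjusted p = 0.115), in a range from 0.00106 to 0.115.

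Ash2l, the subunit that holds Rbbp5 and Dpy30, lies on chromosome 8 (26926663 to 26958166, minus strand; ENSMUSG00000031575). Untreated WT cells stood at 104 and 102 CPM per kb and untreated Cfp1−/− cells at 65.2 and 82.6, all lower. The log2 fold change of -0.48 (SE 0.16, edgeR adjusted p = 0.0418) lay close to the threshold, and the adjusted p ranged from 0.00741 to 0.28 over the alternatives. It was not called without untreated Cfp1−/− replicate 1 (-0.29, adjusted p = 0.28), without untreated WT replicate 1 (-0.45, adjusted p = 0.134) or replicate 2 (-0.50, adjusted p = 0.11), or without treated Cfp1−/− replicate 1 (adjusted p = 0.0667) or replicate 2 (adjusted p = 0.0678). It was also not called with total count scaling (-0.29, adjusted p = 0.192), with the affected run included (adjusted p = 0.051) or with the untreated groups fitted alone (adjusted p = 0.0511), so 9 of 17 alternatives called it. Chromosome 8 had the lowest median of any chromosome in this comparison, -0.23 over the other 820 tested genes, and the 20 nearest tested genes had a median of -0.33. Relative to its chromosome Ash2l stood at -0.25.

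The other 4 subunits were not called between the untreated lines. Wdr82 had a log2 fold change of -0.05 (95% interval -0.42 to 0.31), Wdr5 of -0.02 (-0.33 to 0.30) and Hcfc1 of -0.12 (-0.44 to 0.21). Scaled by total counts, these stood at 0.14, 0.17 and 0.07, where the median over all tested genes moved from 0.01 to 0.20, so each lay below that median on both scales. Dpy30, which binds Ash2l as a dimer, was at 157 and 170.1 CPM per kb in WT and 105 and 142 in Cfp1−/− cells, lower in both, with a log2 fold change of -0.40 (95% interval -0.83 to 0.02, edgeR adjusted p = 0.126). With a term for the replicate block Dpy30 was called (-0.42, edgeR adjusted p = 0.0251), in the only 1 of 17 alternatives that did so.

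**Figure D2:**
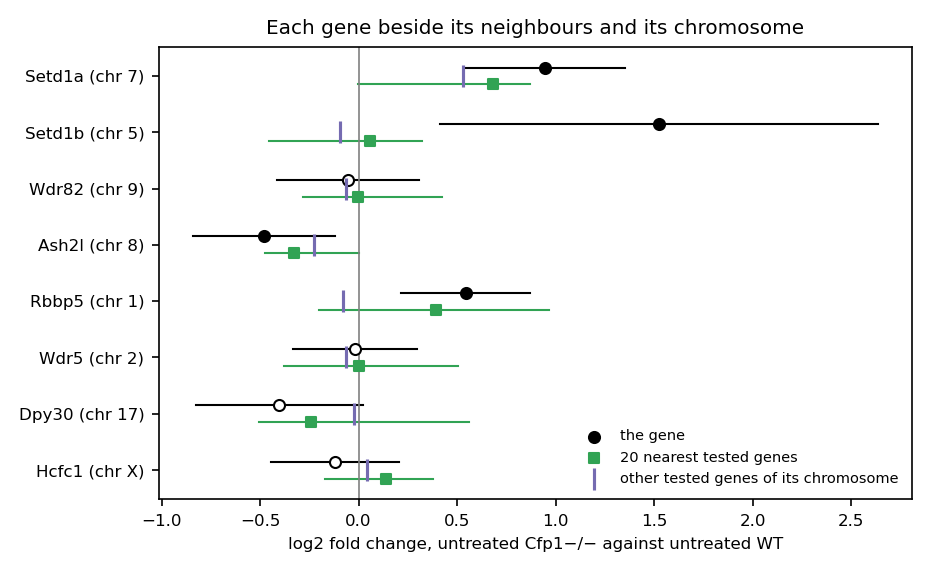
Log2 fold change of untreated Cfp1−/− against untreated WT cells for the 8 other subunits (circles, filled where the adjusted p was under 0.05, with 95% intervals). Squares are the median of the 20 nearest tested genes with its quartiles and vertical ticks the median of the other tested genes of the chromosome, and the surroundings of Setd1a (median 0.68) lie to the right of 0 and those of Ash2l (median -0.33) to the left.

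In the presence of doxorubicin 0 of the 8 subunits were called between the lines by edgeR, against 28% of all tested genes in either direction. None of the 8 had an edgeR unadjusted p under 0.05, which at least 28% of all tested genes had. DESeq2 also called 0, against 4276 of 15762 tested genes. Whether 0 of 8 differs from these shares was not tested. The log2 fold changes ran from -0.23 for Hcfc1 to 0.39 for Setd1a. Ash2l stood at -0.21 (SE 0.16, adjusted p = 0.361), beside a median of -0.26 for chromosome 8, and Rbbp5 at 0.18 (SE 0.15, adjusted p = 0.385). That fewer members were called with doxorubicin than without it does not show that the difference between the lines changed, which is the test of the responses below.

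With doxorubicin 6 of the 8 subunits fell in each line, and 5 of these, Wdr82, Wdr5, Ash2l, Hcfc1 and Rbbp5, fell in both. Of all tested genes 22.8% were called lower in WT and 21.4% in Cfp1−/− cells. The 8 together had medians on the log2 scale of -0.65 (WT) and -0.82 (Cfp1−/−), against 0.06 and 0.01 over all tested genes. No member was called higher in either line, against 27% of tested genes in WT and 27.7% in Cfp1−/− cells. ES cell markers fell as well, 7 of 8 in WT and 6 of 8 in Cfp1−/− cells, with medians of -1.31 and -1.45, and their part in the members' fall was not tested. Scaling by total counts moved the median of all genes to 0.37 in WT and 0.22 in Cfp1−/− cells and the share of higher among called genes from 54.2 to 75.1% and from 56.4 to 71.0%. Under it 4 members were called in WT, Wdr82, Wdr5 and Ash2l lower and Setd1a higher, and 5 in Cfp1−/− cells, Setd1b, Wdr82, Wdr5, Rbbp5 and Hcfc1, all lower.

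Wdr82, which tethers Set1 complexes to RNA polymerase II, lies on chromosome 9 (106073260 to 106094747, plus strand; ENSMUSG00000020257) and had the largest fall of any member in WT cells. Its level was 60.4 and 54.7 CPM per kb in untreated WT cells and 24.1 and 26.03 in treated WT cells. In Cfp1−/− cells it was 57.7 and 53.2 without and 28.6 and 20.1 with doxorubicin. Treated and untreated libraries were far apart in both lines. Wdr82 fell by 1.20 on the log2 scale in WT (SE 0.16, edgeR adjusted p = 0.000301) and by 1.19 in Cfp1−/− cells (SE 0.16, adjusted p = 0.000345), and it was called under every alternative fit.

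Wdr5, the WD-repeat subunit of the core, lies on chromosome 2 (27370677 to 27392055, plus strand; ENSMUSG00000026917). It went from 84.9 and 69.1 to 44.1 and 40.4 CPM per kb in WT and from 80.4 and 71.7 to 43.7 and 37.3 in Cfp1−/− cells. The treated libraries lay below the untreated ones in each line. Wdr5 had log2 fold changes of -0.87 (SE 0.14, edgeR adjusted p = 0.00088) and -0.91 (SE 0.14, adjusted p = 0.000711), and both were called under every alternative fit.

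Hcfc1, a large cofactor that Set1 and MLL complexes share, lies on chromosome X (71188131 to 71211696, minus strand; ENSMUSG00000031386). Untreated WT cells had 50.7 and 48.9 CPM per kb and treated WT cells 34.3 and 28.8. Untreated Cfp1−/− cells had 51.3 and 40.6 and treated Cfp1−/− cells 28.3 and 25.5, where the first of these rests on a single technical run. The log2 fold change was -0.66 in WT (SE 0.15, edgeR adjusted p = 0.00462) and -0.77 in Cfp1−/− cells (SE 0.15, adjusted p = 0.00206). Total count scaling gave -0.34 in WT and no call (adjusted p = 0.0627, in a range from 9.29e-05 to 0.0627). With the affected run included, as in the normalized counts deposited by the authors, Hcfc1 in treated Cfp1−/− replicate 1 stood at 3148 normalized counts, against 4366 in replicate 2.

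Ash2l was at 50.7 and 67.6 CPM per kb in treated WT cells, below both untreated libraries, and fell by 0.80 on the log2 scale (SE 0.16, edgeR adjusted p = 0.00273). In treated Cfp1−/− cells it was at 51.4 and 51.0, with a log2 fold change of -0.53 (SE 0.16, adjusted p = 0.0217). The second of these calls was lost without treated Cfp1−/− replicate 1 (-0.55, adjusted p = 0.0761), without treated Cfp1−/− replicate 2 (-0.52, adjusted p = 0.108), without untreated Cfp1−/− replicate 2 (-0.36, adjusted p = 0.146) and with total count scaling (-0.32, adjusted p = 0.134), in a range from 0.00403 to 0.146.

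Rbbp5 went to 24.7 and 21.7 CPM per kb in treated WT cells and to 28.6 and 23.9 in treated Cfp1−/− cells, in each case below both untreated libraries of the line. The log2 fold change was -0.51 in WT (SE 0.15, edgeR adjusted p = 0.0159) and -0.88 in Cfp1−/− cells (SE 0.15, adjusted p = 0.00102). The WT call was lost without treated WT replicate 2 (-0.43, adjusted p = 0.0818), without untreated WT replicate 1 (-0.40, adjusted p = 0.103) and with total count scaling (-0.20, adjusted p = 0.261), in a range from 0.00113 to 0.261.

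Dpy30 lies on chromosome 17 (74698814 to 74723284, minus strand; ENSMUSG00000024067). In treated WT cells it was at 86.2 and 124 CPM per kb, below both untreated libraries, and in treated Cfp1−/− cells at 91.5 and 89.7. It had a log2 fold change of -0.64 in WT (SE 0.19, edgeR adjusted p = 0.0195), which was not called without treated WT replicate 1 (-0.41, adjusted p = 0.114), without untreated WT replicate 2 (-0.59, adjusted p = 0.0719) or with total count scaling (-0.32, adjusted p = 0.188), in a range from 0.00132 to 0.188. In Cfp1−/− cells the log2 fold change was -0.45 (SE 0.19, adjusted p = 0.0765). That value lay near the threshold, and 10 of 17 alternative fits called it, among them the fit with the first run alone for both treated replicates 1 (adjusted p = 0.0438), over a range from 0.0174 to 0.428.

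**Figure D3:**
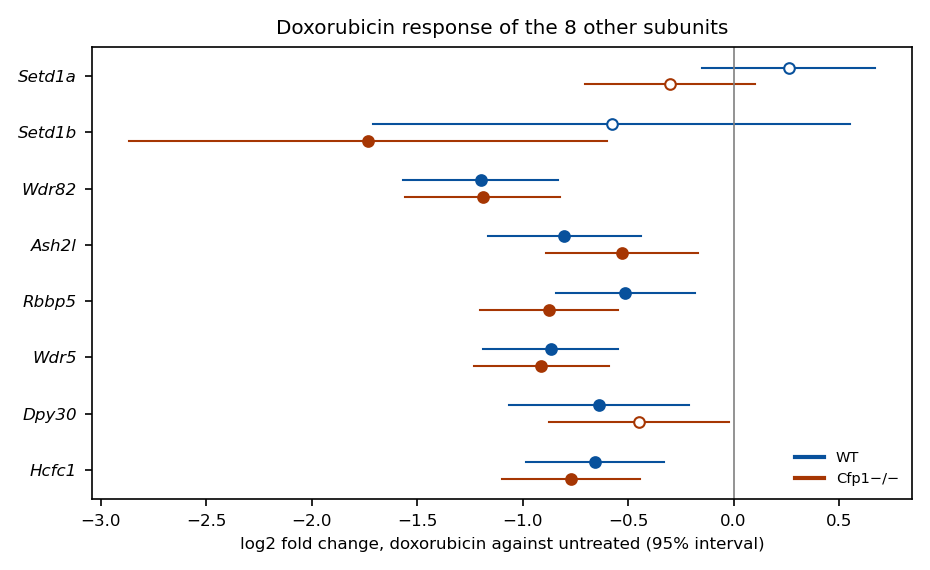
Log2 fold change with doxorubicin in WT (blue) and Cfp1−/− cells (orange) for the 8 other subunits, with 95% intervals, filled where the adjusted p was under 0.05. Apart from Setd1a in WT every point lies to the left of 0, and the intervals of the lines overlap for each gene.

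Whether the response differed between the lines was tested directly. By edgeR 0 of the 8 subunits were called, against 0.247% of all tested genes, 39 in number. DESeq2 called 0 of the 8 and 247 genes in all, 1.57%. None of the 8 had an edgeR unadjusted p under 0.05, against 1809 of all tested genes, 11.5%. Whether 0 of 8 differs from these shares was not tested. Setd1a came nearest, with a difference of responses (Cfp1−/− minus WT) of -0.56 (95% interval -1.14 to 0.01, edgeR unadjusted p = 0.0546, adjusted p = 0.444). Setd1b had the largest difference, -1.15, with an interval from -2.74 to 0.43. It ranged from -1.73 to -0.23 over the alternatives, was -0.58 without treated WT replicate 1, and at -0.23, without untreated Cfp1−/− replicate 1, was no longer the largest. For Wdr82 the difference was 0.01 (-0.50 to 0.52), for Wdr5 -0.04 (-0.49 to 0.40) and for Hcfc1 -0.11 (-0.57 to 0.35), each with an interval that spans 0. For Ash2l it was 0.27 (-0.24 to 0.78), for Rbbp5 -0.36 (-0.82 to 0.10) and for Dpy30 0.19 (-0.41 to 0.79).

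The study's own call asks for an adjusted p under 0.05, a change of 2.5-fold or more and an average of 200 normalized counts or more. With the edgeR p-values used here, rather than those of the study's own tool, 0 of the 8 subunits were called with doxorubicin in WT, against 7.91% of tested genes, and 1, Setd1b, in Cfp1−/− cells, against 7.51%. Between the untreated lines 1 was called, again Setd1b, against 3.34%, although by DESeq2 its adjusted p was 0.072 and the call would be lost, in a range from 0.000106 to 0.359 over the alternatives. Between the treated lines 0 were called, against 2.69%.

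The promoters of subunits that fell in both lines are shown because Cfp1 binds unmethylated CpG dinucleotides. Whether Cfp1 or these dinucleotides have a part in the fall was not tested. Of the 9 members 6 had an entry among the RefSeq promoters (GRCm38.p6), all but Cxxc1, Setd1b and Ash2l. The 250 bases before the start of Wdr82 held 24 CG dinucleotides, those of Hcfc1 19, those of Wdr5 12 and those of Rbbp5 10, where 11.98, 19.7, 33.5 and 37.8% of 32851 promoter windows of that length held as many or more and 92.1% held at least 1. Setd1a, called with doxorubicin in neither line, held 25, and 10.7% of windows held as many or more. The windows of Dpy30, called in WT alone, held 1, 21, 28 and 34, where 92.1, 16.3, 7.61 and 3.525% held as many or more. CG reads the same on both strands and was the only motif searched. In NCBIM37, the build of the count tables, the same bases lie at chr9:106073010-106073259 on the plus strand for Wdr82, at chrX:71211697-71211946 on the minus strand for Hcfc1, at chr2:27370417-27370666 on the plus strand for Wdr5 and at chr1:134373694-134373943 on the plus strand for Rbbp5, outside every annotated exon. CG is in capitals, and a match describes these letters alone.
Wdr82: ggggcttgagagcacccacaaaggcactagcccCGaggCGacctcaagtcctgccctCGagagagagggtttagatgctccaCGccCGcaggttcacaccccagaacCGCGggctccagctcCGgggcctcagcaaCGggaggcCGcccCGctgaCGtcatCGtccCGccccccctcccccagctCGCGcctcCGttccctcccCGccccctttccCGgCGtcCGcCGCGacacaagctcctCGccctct
Hcfc1: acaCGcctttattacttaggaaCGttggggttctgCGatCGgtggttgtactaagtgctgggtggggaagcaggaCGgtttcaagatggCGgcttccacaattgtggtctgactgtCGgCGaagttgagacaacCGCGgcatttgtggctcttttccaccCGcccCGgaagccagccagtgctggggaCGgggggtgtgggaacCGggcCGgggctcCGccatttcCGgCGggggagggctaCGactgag
Wdr5: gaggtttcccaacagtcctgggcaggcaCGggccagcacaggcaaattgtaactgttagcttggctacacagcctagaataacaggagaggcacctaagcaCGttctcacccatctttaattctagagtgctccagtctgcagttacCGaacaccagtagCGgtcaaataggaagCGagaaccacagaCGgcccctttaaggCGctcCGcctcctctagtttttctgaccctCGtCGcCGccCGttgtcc
Rbbp5: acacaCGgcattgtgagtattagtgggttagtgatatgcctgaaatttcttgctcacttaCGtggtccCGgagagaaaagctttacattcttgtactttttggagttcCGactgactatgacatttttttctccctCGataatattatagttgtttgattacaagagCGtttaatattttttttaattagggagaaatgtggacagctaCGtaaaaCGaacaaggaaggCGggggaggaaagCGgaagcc

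Genes whose log2 CPM followed that of a member over the 8 libraries were ranked by Pearson's r, as a description of libraries that share their groups and depth. For Setd1a the highest were Shroom3 (r = 0.99), Hipk2 (0.989) and Zscan22 (0.986), the last of them also on chromosome 7. For Setd1b they were Vps13d (0.979), Mark2 (0.978) and Tyw3 (0.977), and among the members Rbbp5 ranked highest for Setd1b, with r = 0.912. For Cxxc1 they were Gm12666 (0.993), Gm9000 (0.993) and Gm10036 (0.992), predicted genes whose counts are uncertain where near-identical copies share reads. Setd1a and Setd1b had r = 0.719 with each other, and Cxxc1 had -0.845 with Setd1a.

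Other genes of H3K4 methylation were taken from fixed lists, to be read against the shares of all tested genes. With doxorubicin 27% were called higher and 22.8% lower in WT, and 27.7 and 21.4% in Cfp1−/− cells. Between the untreated lines the shares were 18.7 and 17.2%, and between the treated lines 16 and 12.1%. Of 10 genes listed as other H3K4 methyltransferases 1 rose and 4 fell with doxorubicin in each line. Their median log2 fold changes were 0.09 in WT and -0.28 in Cfp1−/− cells. The activity of the listed products was not measured. In WT the named ones were Smyd1 (-1.96, edgeR adjusted p = 0.0137), Kmt2c (-1.10, adjusted p = 0.0105) and Kmt2e (-0.98, adjusted p = 0.00154). In Cfp1−/− cells they were Smyd1 (-1.39, adjusted p = 0.0389), Kmt2e (-1.30, adjusted p = 0.000362) and Setd7 (1.25, adjusted p = 0.00378). Between the untreated lines 2 were higher and 1 lower in Cfp1−/− cells, Kmt2b, which encodes the catalytic subunit of another COMPASS complex, by 1.06 (adjusted p = 0.00769), Kmt2c by 0.88 (adjusted p = 0.0375) and Setd7 by -1.64 (adjusted p = 0.00176). With doxorubicin Smyd1 (1.75, adjusted p = 0.0414), Kmt2c (0.98, adjusted p = 0.0315) and Setd7 (-0.78, adjusted p = 0.0496) were called.

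Of 7 subunits particular to MLL complexes 1 rose and 3 fell in WT (27 and 22.8% of all tested genes) and 1 rose and 4 fell in Cfp1−/− cells (27.7 and 21.4%), with medians of -0.23 and -0.48. The histone demethylase Kdm6a fell by 1.14 and 0.96 on the log2 scale (edgeR adjusted p = 5.65e-05 and 0.000164), and Hcfc2, the relative of Hcfc1, rose by 0.88 and 0.72 (adjusted p = 0.0141 and 0.0323). Psip1 had -0.95 in WT (adjusted p = 0.000805) and -0.68 in Cfp1−/− cells (adjusted p = 0.00512), and Ncoa6 -0.80 (adjusted p = 0.0161) and -0.88 (adjusted p = 0.0103), so both fell in both lines. Psip1 (-0.50, adjusted p = 0.0304) and Kdm6a (-0.46, adjusted p = 0.0129) were lower in untreated Cfp1−/− cells, where the list's median was 0.29. Between the treated lines edgeR called 0 of 7, against 28% of all tested genes, with an unadjusted p under 0.05 for 2. DESeq2 also called 0 of 7 there, against 4276 of 15762 tested genes.

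Of 9 genes listed as H3K4 demethylases 1 rose and 5 fell in WT (27 and 22.8% of all tested genes). In Cfp1−/− cells 1 rose and 6 fell (27.7 and 21.4%), and the medians were -0.48 in WT and -0.34 in Cfp1−/− cells. Kdm1b rose by 0.75 and 1.36 (edgeR adjusted p = 0.00103 and 4.39e-05), Kdm5b had -0.60 and -0.93 (adjusted p = 0.00913 and 0.000913), and Kdm1a -0.70 and -0.34 (adjusted p = 0.000592 and 0.0251). Kdm5d fell in Cfp1−/− cells (-0.79, adjusted p = 0.00303), and in WT it had 7 and 6 counts without and with doxorubicin. In untreated Cfp1−/− cells 1 was higher and 3 lower (18.7 and 17.2% of all tested genes), with Kdm2b at -0.67 (adjusted p = 0.021) and Kdm1b at -0.53 (adjusted p = 0.0103). The higher one was Kdm5d, which is Y-linked and stood at 0.152 CPM in untreated WT and 52.2 CPM in untreated Cfp1−/− cells, and at 0.171 and 30.1 CPM with doxorubicin.

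Of 18 readers of H3K4me3 and acetylation factors 3 rose and 8 fell in WT (27 and 22.8% of all tested genes) and 2 rose and 8 fell in Cfp1−/− cells (27.7 and 21.4%), with medians of -0.41 and -0.43. Phf8 rose by 1.53 and 1.47 (edgeR adjusted p = 2.16e-05 and 2.98e-05), and Phf2 by 1.06 and 1.80 (adjusted p = 0.00294 and 0.000171), in WT and Cfp1−/− cells. Kat2b had -1.86 and -1.38 (adjusted p = 8.7e-05 and 0.000477), Spin1 -1.30 and -1.04 (adjusted p = 4.31e-05 and 0.000172) and Phf13 -1.27 and -1.54 (adjusted p = 0.00354 and 0.0014), so each fell in both lines. Without doxorubicin 2 were higher and 3 lower in Cfp1−/− cells, at or under the shares of 18.7 and 17.2% of all tested genes, the lower ones being Spin1 (-0.77, adjusted p = 0.00173), Ing1 (-0.74, adjusted p = 0.003) and Chd1 (-0.70, adjusted p = 0.00255), and with it 1 was higher, Sgf29 (0.65, adjusted p = 0.0171), and 4 lower (16 and 12.1% of all tested genes), among them Ing1 (-0.85, adjusted p = 0.00248) and Tada2b (-0.73, adjusted p = 0.0262).

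Wdr82 also belongs to a phosphatase complex, and of 5 genes of that complex 2 fell in each line (22.8 and 21.4% of all tested genes), Ppp1cb by 1.11 and 0.59 (edgeR adjusted p = 0.000271 and 0.00851) and Ppp1cc by 1.03 and 1.06 (adjusted p = 0.000781 and 0.000746). The scaffold Ppp1r10 was higher in Cfp1−/− cells without (0.97, adjusted p = 0.000829) and with doxorubicin (0.55, adjusted p = 0.015), as was Tox4 without it (0.47, adjusted p = 0.00995). In the difference of the responses edgeR called 0 genes of each of these lists, against 0.247% of all tested genes. DESeq2 also called 0 of each, against 1.57%. An edgeR unadjusted p under 0.05 was found for 1 of 10 genes on the methyltransferase list and 0 of 7 MLL subunits. The same held for 2 of 9 on the demethylase list, 2 of 18 readers and 1 of 5 phosphatase genes, against 11.5% of all tested genes.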

How the data were processed

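Total RNA without ribosomal RNA went into stranded libraries. The authors aligned reads to NCBIM37 (mm9) with STAR (version 2.2.1 in the submitters' processing notes) and counted them with HTSeq on exons of Ensembl genes, by strand and without reads on more than 1 gene. The authors deposited raw counts per technical replicate. They also deposited normalized counts per biological replicate, a signal equal to the summed counts times a constant per library.

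Symbols and exon lengths came from GENCODE vM1. Counts were summed over technical replicates, except a run of treated Cfp1−/− replicate 1 in which over 50% of X-linked genes with at least 200 counts in the first run held 0. Genes passing filterByExpr (15762 of 22375) were fitted with edgeR 4.0.16 in R 4.3.3 (TMM, a coefficient per group, glmQLFit, glmQLFTest, Benjamini-Hochberg over all tested genes), and DESeq2 1.42.0 was an alternative. Scripts were tested on simulated data. CPM uses TMM library sizes, and CPM of single runs all counts of the run. The floor was set at 3 counts.

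The named genes are the 9 members, in each list and comparison up to 3 called genes with the largest absolute log2 fold change, and for Cxxc1, Setd1a and Setd1b the 3 genes of highest Pearson correlation. Single marker genes were named after their values were seen. Members and lists were chosen with earlier results of these data known. The fit with the first run alone for both treated replicates 1 and the level of Setd1a per kb of unshared exons, with the share of Setd1b on it, were chosen after seeing the data.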

Additional observations from a re-analysis of the deposited data

Results flagged for a closer look

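Setd1a went in opposite directions with doxorubicin in the lines. Both treated WT libraries stood above both untreated WT libraries, and both treated Cfp1−/− libraries below both untreated ones. The difference of the log2 responses was -0.56 and did not pass the test of the difference itself (edgeR unadjusted p = 0.0546, adjusted p = 0.444). Over the alternatives this difference ran from -0.77 to -0.34, the response from 0.09 to 0.57 in WT and from -0.52 to -0.08 in Cfp1−/− cells.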

How the results depend on the processing

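By the study's rule the number of the 8 subunits called was 0 with doxorubicin in WT, 1 in Cfp1−/− cells and 1 between the untreated lines, since the rule asks for a larger fold. Leaving out 1 replicate at a time, which leaves a group with a lone library assumed to vary like the others, between 1 and 4 were called between the untreated lines. With doxorubicin 5 to 6 were called in WT and 4 to 7 in Cfp1−/− cells. The falls of Wdr82 and Wdr5 in both lines and the untreated difference of Setd1a were called under all 17 alternatives. So were the falls of Ash2l in WT and of Hcfc1 and Rbbp5 in Cfp1−/− cells.

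Some log2 fold changes that were not called changed sign. Under total count scaling they followed the median of all tested genes, which moved from 0.01 to -0.09 in the difference of the responses, from 0.01 to 0.20 between the untreated lines and from 0.02 to 0.11 between the treated lines. For the other alternatives the cause was not tested. In the difference of the responses Wdr82 stood at -0.10 with total count scaling, -0.0032 without a filter on low counts and -0.013 with the first run alone for both treated replicates 1. Total count scaling gave, between the untreated lines, 0.14 for Wdr82, 0.17 for Wdr5 and 0.072 for Hcfc1, and Wdr5 was at 0.0050 with the first technical replicates alone and at 0.0051 with the groups compared alone. With doxorubicin it gave 0.039 for Wdr82 and 0.022 for Wdr5. Leaving out 1 replicate gave, in the difference, -0.27 to 0.25 for Wdr82, -0.25 to 0.069 for Wdr5, -0.055 to 0.47 for Dpy30 and -0.28 to 0.048 for Hcfc1. For untreated cells it gave -0.13 to 0.028 for Wdr82, -0.16 to 0.15 for Wdr5 and -0.27 to 0.042 for Hcfc1. With doxorubicin it gave -0.061 to 0.94 for Setd1b, -0.33 to 0.19 for Wdr82, -0.41 to 0.0098 for Ash2l, -0.19 to 0.050 for Wdr5 and -0.46 to 0.067 for Dpy30.

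With a term for the replicate block, 7 and 7 subunits were called with doxorubicin, 0 in the difference of the responses, 5 between the untreated lines and 0 between the treated lines, and the Wdr82 difference was -0.0073. The block added the calls in WT with doxorubicin of Setd1b (-0.61, adjusted p = 0.0198, in a range from 0.0198 to 0.839 over the alternatives) and Cxxc1 (-0.44, adjusted p = 0.033, in a range from 0.033 to 0.596), and of Dpy30 in Cfp1−/− cells with doxorubicin (adjusted p = 0.0174) and between the untreated lines (adjusted p = 0.0251, in a range from 0.0251 to 0.585). The labels do not say what a replicate number shares. As a pairing check, the replicate differences of all tested genes correlated between pairs of groups at 0.106 to 0.365.

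Over all tested genes the difference of the responses had 39 calls, against 247 by DESeq2, 228 without a filter, 352 with the block and 0 to 20 with 1 replicate left out. Between the untreated lines 5651 genes were called, and 3640 without untreated WT replicate 2 and 3471 without untreated Cfp1−/− replicate 1. With doxorubicin 4418 were called, and 2759 without treated WT replicate 2, 2065 and 1641 without treated Cfp1−/− replicate 1 or 2. In Cfp1−/− cells 7734 responded, and 4608 without treated replicate 2. With 2 libraries a group the intervals of the members' log2 fold changes are wide, and Cxxc1 in Cfp1−/− cells stands at 1 to 4 counts a library.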
